A study of Mus musculus with 25 samples.

Results

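The combined exposure of mouse liver to diethylnitrosamine (DEN) and a Western-style diet was described here in tissue that was not tumor. The comparison set 8 peritumoral libraries (DEN PT-WD) against 3 livers with neither exposure (nonDEN L-CD), and these 11 of the 25 RNA-seq libraries of the study were chosen by their labels for tissue, treatment and diet. All mice were C57BL/6J, and the injected mice were males. DEN, a carcinogen that hepatocytes activate to a DNA-alkylating form, was given intraperitoneally at 25 mg/kg at an age of 2 weeks, and the diets ran from weaning. DEN PT-WD mice received DEN and the Western-style diet (WD), carried liver tumors, and were sampled in the tissue around them. nonDEN L-CD mice received no DEN and the control diet (CD). The remaining libraries were 4 of uninjected mice on WD (nonDEN L-WD), 4 of DEN-injected mice on CD (DEN L-CD) and 6 of tumors (DEN T-WD), used here for the common estimate of spread and for the single exposures. Carcinogen, diet and closeness to a tumor all changed together, so their shares in a difference cannot be told apart by this comparison alone. The labels do not say whether the libraries of a group came from separate mice, so the p-values measure the spread between libraries.

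DEN initiates hepatocyte tumors in young male mice, and a diet rich in fat and sugar loads the liver with lipid and promotes tumor growth. Fatty, injured liver recruits macrophages that take up lipid and dying cells, activates stellate cells that lay down collagen, and draws lymphocytes that are guided by chemokines and read antigen on MHC molecules. The male liver also keeps a sex-specific program, set by the pulsatile release of growth hormone, that secretes major urinary proteins and holds female-type cytochromes P450 silent.

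Library totals were alike in both groups, at 26570081 to 28278208 counts in nonDEN L-CD and 23225238 to 38074411 in DEN PT-WD. All 8 peritumoral libraries detected more genes (19546 to 20457 with a count, against 18686 to 19125; exact permutation test, two-sided, p = 0.00606, the smallest that 3 against 8 libraries can give, adjusted over 5 measures 0.0303). Every library of the other groups also lay above these controls. They ran at 19336 to 19949 in nonDEN L-WD, 19282 to 19672 in DEN L-CD and 19304 to 20846 in tumors. The read length implied by the files was 74.06 to 74.15 bases in nonDEN L-CD and 73.74 to 74.05 in DEN PT-WD (exact permutation p = 0.0121, adjusted 0.0303), and 73.84 to 73.98 in DEN L-CD, so among non-tumor tissues it moved with DEN, and its part in the results was not tested. Hepatocyte markers fitted the liver label in every library, with albumin (Alb) at 45198 to 47644 TPM (transcript abundance corrected for length and library size) in nonDEN L-CD and 23227 to 48642 in DEN PT-WD. Acinar pancreas RNA was present in libraries of both groups: the summed TPM of the pancreas list was 1675, 10.5 and 666 in nonDEN L-CD and 10.1 to 8833 in DEN PT-WD. None of its 19 tested genes was called (edgeR, 0 at an unadjusted p under 0.05, 0 by DESeq2). DEN PT-WD 6 and 7 had 1088 and 1122 genes at least 2-fold from the median of the other peritumoral libraries, against 561 to 741 for the other 6, and nonDEN L-CD 1 had 1042 against 861 and 897 for the other controls. Where they stood apart for a gene group is described with those genes.

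Of 15625 genes tested, 2077 (13.3%) were called between DEN PT-WD and nonDEN L-CD, which here means an adjusted p of at most 0.05 (edgeR quasi-likelihood test, Benjamini-Hochberg) and a change of at least 2-fold. Higher levels made up most of them, with 1596 genes (10.2%) higher and 481 (3.08%) lower. In 31.8% of all genes the normalized counts of the 8 and 3 libraries did not overlap at all. Scaling by library totals in place of TMM factors gave 2504 higher and 267 lower, a share of 90.4% higher instead of 76.8%, and moved the median of all genes from 0.04 to 0.32 on the log2 scale. Under that scaling the medians of 5 of the 38 gene lists changed sign, all within 0.2 of 0 with TMM factors: the unfolded protein response, cholesterol synthesis, lipid droplets, PPAR alpha targets and gluconeogenesis. Without nonDEN L-CD 2 and 3 there were 812 calls, and list counts fell too, to 2 for T and NK cells, 2 for B cells, 6 for MHC class II, 2 for chemokines rising, 5 for interferon-stimulated genes, 3 for female-biased genes and 0 for erythroid genes. A gene list is described below by its called members and its median log2 fold change, which can be read against these shares over all genes. A call that ended when 1 of the 11 libraries was left out is given below as lost in that many fits, of 11 in all.

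**Figure D1:**
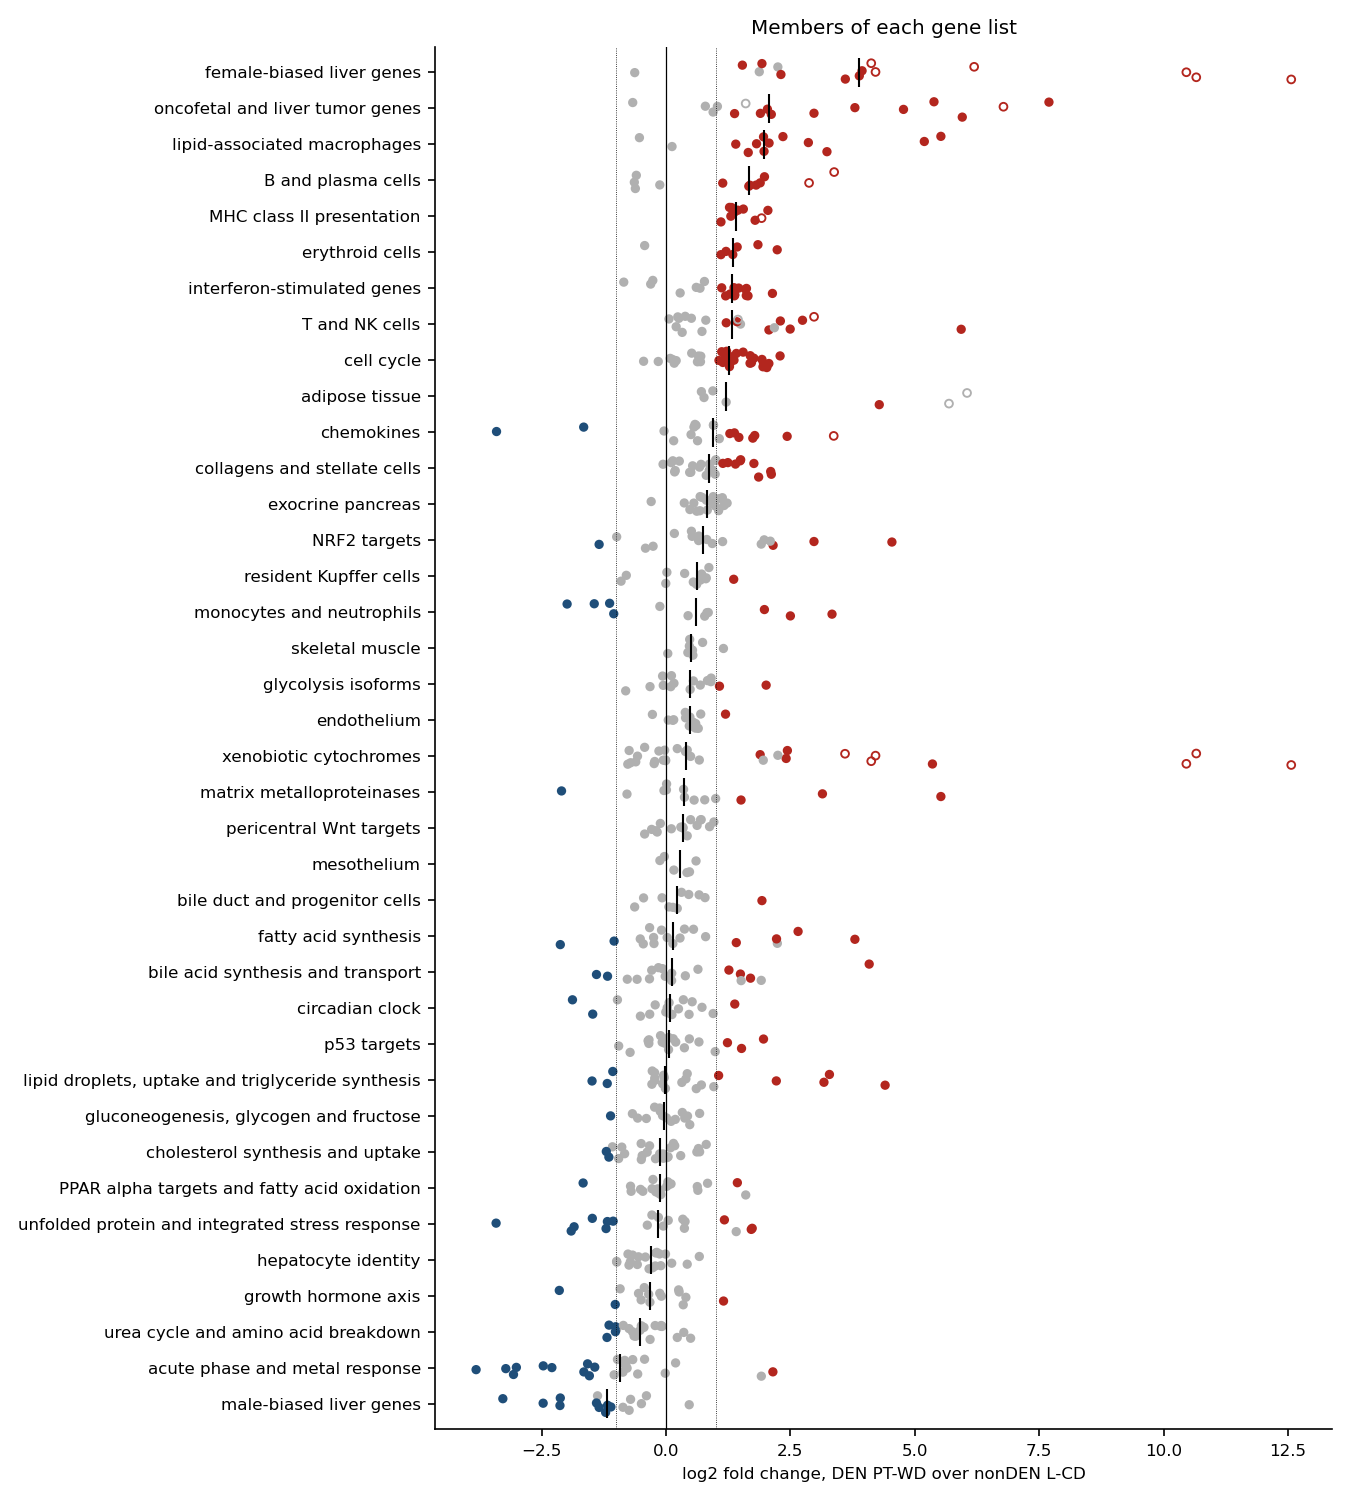
Log2 fold change of DEN PT-WD over nonDEN L-CD for every tested member of the 38 gene lists, with lists ordered by their median (black bar), red points for genes called higher, blue for genes called lower, grey for genes not called, open circles for genes with at most 3 raw counts in every nonDEN L-CD library and dotted lines at 2-fold. Female-biased liver genes, oncofetal genes and lipid-associated macrophage genes have the highest medians, and male-biased and acute phase genes the lowest.

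Genes of lipid-associated macrophages, phagocytes that clear lipid and dying hepatocytes in fatty liver, were higher in peritumoral tissue. Of 13 measured genes 11 rose and 0 fell, with a median log2 fold change of 1.97, and each of the 11 was above all nonDEN L-CD libraries in all 8 peritumoral ones. Mmp12, the macrophage elastase (ENSMUSG00000049723, chr9:7344381-7369499), had normalized counts of 11.7, 11.5 and 26.3 in nonDEN L-CD and a median of 778 with a range of 375 to 1106 in DEN PT-WD. The log2 fold change was 5.52 ± 0.64 (adjusted p = 9.77e-07), where ± gives the standard error, and values written this way below are log2 fold changes too. Gpnmb, a lysosomal membrane glycoprotein, rose from 11.7, 18.4 and 14.9 to a median of 471 with a range of 144 to 1246 (5.19 ± 0.86, adjusted p = 5.88e-05). The lipid receptor Trem2 rose from 10.5, 4.60 and 12.6 to a median of 88.6 with a range of 45.2 to 121 (3.23 ± 0.46, adjusted p = 1.08e-05), and the integrin Itgax (CD11c) from 15.2, 25.3 and 26.3 to a median of 159.8 with a range of 97.3 to 224 (2.86 ± 0.37, adjusted p = 3.11e-06). DEN PT-WD 6 was the lowest peritumoral library for all 4 and still lay above every control. Osteopontin (Spp1), the tetraspanin Cd63, Lpl, Capg, Lgals3, Cd68 and Atp6v0d2 also rose, by 1.40 to 2.35 on the log2 scale. In bulk tissue, more cells of a type and more RNA per cell cannot be told apart, here and for every cell type list that follows.

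Of 13 genes of resident Kupffer cells 1 was called, Cd5l, a scavenger protein of these cells (1.36 ± 0.30, adjusted p = 0.000887). The median of the list was 0.61, 8 genes had an unadjusted p under 0.05, and the groups overlapped for all 13. With library totals 5 of the 13 were called higher, without nonDEN L-CD 1 there were 4, and without nonDEN L-CD 2 and 3 there were 0, with a median of 0.31. The summed level of 5 Kupffer markers ran from 105 to 168 TPM in nonDEN L-CD and from 162 to 390 in DEN PT-WD. The Kupffer lectin Clec4f ran from 1554 to 2459 in nonDEN L-CD and 1883 to 3472 in DEN PT-WD, with overlapping groups (0.37 ± 0.19, adjusted p = 0.104). Timd4, a receptor for dying cells kept by long-lived Kupffer cells, also overlapped (0.02 ± 0.33, adjusted p = 0.972). Of 12 monocyte and neutrophil genes 3 rose and 4 fell. With library totals 6 rose and 2 fell. The rising ones with TMM factors were the chemokine receptors Cx3cr1 (3.34 ± 0.53) and Ccr2 (1.98 ± 0.37) and the chitinase-like Chil3 (2.50 ± 0.95, lost in 3 fits). The falling ones were the neutrophil genes Retnlg, Cxcr2, S100a8 and S100a9, at -1.99 to -1.05, which were high in nonDEN L-CD 2 and 3. Without those 2 libraries 0 were called lower, and Cxcr2 (0.38), S100a8 (0.27) and S100a9 (0.63) turned positive. S100a8 counted 30.4, 90.8 and 123 there and 12.7 to 62.2 in DEN PT-WD, its call was lost in 7 of the 11 fits that left out 1 library, and of the 4 falls 1 was called without nonDEN L-CD 2 or 3 and 2 without DEN PT-WD 2, 4 or 6 or with library totals.

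Some genes of collagens and matrix were higher. Of 27 genes of collagens and stellate cells, the vitamin A storing cells that turn into matrix producers, 9 rose and 0 fell, with a median of 0.87. Col1a1, a chain of type I collagen (ENSMUSG00000001506, chr11:94936224-94953042), had 132, 125 and 207 normalized counts in nonDEN L-CD and a median of 712 with a range of 422 to 956 in DEN PT-WD (2.12 ± 0.33, adjusted p = 2.79e-05). Col3a1 went from 592, 434 and 578 to a median of 2452 with a range of 1642 to 2817 (2.10 ± 0.26, adjusted p = 1.7e-06). The groups did not overlap for either chain, and DEN PT-WD 6 was again the lowest of the 8. Col5a2 (1.86), Col1a2 (1.77), the protease inhibitor Timp1 (1.50), Thbs1 (1.49), Lum (1.24) and the collagen cross-linkers Loxl2 (1.40) and Lox (1.14, lost in 3 fits) rose as well. With library totals 16 of the 27 were called. Among 13 matrix metalloproteinase genes, 3 rose and 1 fell. Collagenase 3 (Mmp13) went from 8.19, 10.3 and 19.5 to a median of 123 with a range of 43.0 to 194 (3.14 ± 0.55, adjusted p = 0.000102) and gelatinase Mmp2 rose by 1.51, while the neutrophil collagenase Mmp8 fell (-2.10 ± 0.61), a call lost without nonDEN L-CD 3. With library totals 5 rose. Of 15 endothelial genes only Cd34 rose (1.20 ± 0.24, list median 0.48), and of 11 bile duct and progenitor genes only Prom1 (1.93 ± 0.61), which was not called without nonDEN L-CD 2. Mesothelial markers gave 0 of 6 called (0 at an unadjusted p under 0.05, 0 by DESeq2).

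Every one of the 10 measured genes of MHC class II presentation rose, with a median log2 fold change of 1.41. Ciita, the master transactivator of the class II genes, had 23.4, 16.1 and 22.9 in nonDEN L-CD and a median of 88.7 with a range of 47.5 to 116 in DEN PT-WD (2.05 ± 0.31, adjusted p = 2.34e-05). The peptide loading chains H2-DMb1 (1.79) and H2-DMa (1.55), the classical chains H2-Eb1 (1.44), H2-Ab1 (1.38) and H2-Aa (1.32), and the invariant chain Cd74 (1.10) moved together. H2-Oa had at most 3 raw counts in every control and was at least 3.04-fold higher. None of these was lost without a single library except H2-DMb2, in 1 fit.

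Lymphocyte genes were called in part, from low levels. Of 20 T and NK cell genes 8 rose and 0 fell, with a median of 1.32 (1.06 with genes near 0 in the controls taken at their lower bounds), and 5 rose without nonDEN L-CD 2. Themis, needed for T cell development, was the largest of them (ENSMUSG00000049109, chr10:28668360-28883818). It counted 9.36, 12.6 and 11.5 in nonDEN L-CD and a median of 677 with a range of 232 to 1253 in DEN PT-WD (5.93 ± 0.66, adjusted p = 5.73e-07). The CD3 chains of the T cell receptor complex, Cd3d (0.32), Cd3e (0.51) and Cd3g (0.39), were not called. Cd3e ran at 0.40 to 0.43 TPM in nonDEN L-CD and 0.37 to 1.74 in DEN PT-WD. Whether the Themis RNA came from T cells was not tested. The CD8 chain Cd8a went from 2.34, 6.90 and 3.44 to a median of 25.2 with a range of 8.20 to 82.8 (2.74 ± 0.66, adjusted p = 0.00191), highest in DEN PT-WD 3. Granzyme A (Gzma) rose by 2.50 and the transcription factor Tox by 1.42. Gzmk was at least 2.86-fold higher. Genes of B and plasma cells were called in 8 of 12 (median 1.67, 0 lower). The B cell factor Pax5 was at least 7.29-fold higher. The antigen receptor partner Cd79a went from 9.36, 1.15 and 12.6 to a median of 28.0 with a range of 21.5 to 45.6 (1.98 ± 0.47). Of 4 fixed markers of these cells 2 were called. The summed TPM of the list overlapped, at 138, 25.4 and 214 in nonDEN L-CD and a median of 88.2 with a range of 48.7 to 303 in DEN PT-WD. nonDEN L-CD 2 held nearly no B cell RNA, with 1.15 normalized counts of Cd79a and 0 of Ms4a1. Without nonDEN L-CD 2, 6 genes of the B and plasma cell list were called. Of 7 erythroid genes 6 rose (median 1.34), led by the anion exchanger Slc4a1 (2.23 ± 0.59), and the alpha and beta globins Hba-a1 and Hbb-bs rose by 1.43 and 1.21, although 67.9% and 51.5% of their 75-base windows occur in other genes. Alas2, the erythroid heme synthase, was not called.

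Of 19 chemokine genes 7 rose and 2 fell (median 0.95). The T cell attractant Ccl5 went from 11.7, 9.20 and 10.3 to a median of 46.5 with a range of 30.1 to 155 (2.43 ± 0.55, adjusted p = 0.0011), with its peak in DEN PT-WD 3. Ccl24 (1.78), Ccl22 (1.74) and the interferon-induced Cxcl10 (1.46) rose too, Ccl7 was at least 4.94-fold higher, and the calls of Ccl2 and Ccl4 were lost in 3 and 4 of the 11 fits without 1 library. In the other direction, the neutrophil attractant Cxcl1 (ENSMUSG00000029380, chr5:90891241-90893115) fell from 958, 4358 and 5242 to a median of 326 with a range of 140.1 to 609 (-3.41 ± 0.51, adjusted p = 1.78e-05). The groups did not overlap, but nonDEN L-CD 1 lay far below its 2 companions. The B cell attractant Cxcl13 also fell (-1.65 ± 0.54), a call lost without nonDEN L-CD 1 or 2.

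Interferon-stimulated genes, induced when STAT and IRF factors bind the interferon-stimulated response element, rose in 13 of 20 cases and fell in 0, with a median of 1.33. Ifi44 went from 63.2, 55.2 and 82.5 to a median of 275 with a range of 119 to 461 (2.14 ± 0.38, adjusted p = 0.000105). Ifit2 rose from 115, 139 and 134 to a median of 381 with a range of 208 to 552 (1.65 ± 0.23, adjusted p = 1.04e-05), and Ifi27l2a by 1.62. Ifit1, which binds foreign RNA ends, and Isg15, a ubiquitin-like modifier, rose by 1.29 and 1.20, without overlap of the groups. Their promoters are shown because they carry the element. RefSeq promoters of GRCm38.p6 (250 bases before to 50 after the start) were searched on both strands for GAAA, any 2 bases and GAAA again, which was present in 1079 of 27025 promoters (3.99%) and in 10 of the 14 list members with a promoter. Of the 14, 10 were called, which were 6 of the 10 with the element and all 4 without it. It was in 0 of 7 promoters of MHC class II genes. The Ifit1 window is chr19:34640639-34640938, plus strand, and the Isg15 window is chr4:156200769-156201068, minus strand, with the matches in capitals:
Ifit1: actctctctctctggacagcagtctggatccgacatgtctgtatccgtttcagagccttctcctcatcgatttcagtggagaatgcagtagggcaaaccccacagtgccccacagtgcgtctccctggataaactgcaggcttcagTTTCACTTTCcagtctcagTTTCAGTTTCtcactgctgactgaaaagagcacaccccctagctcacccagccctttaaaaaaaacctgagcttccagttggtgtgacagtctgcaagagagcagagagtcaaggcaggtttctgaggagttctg
Isg15: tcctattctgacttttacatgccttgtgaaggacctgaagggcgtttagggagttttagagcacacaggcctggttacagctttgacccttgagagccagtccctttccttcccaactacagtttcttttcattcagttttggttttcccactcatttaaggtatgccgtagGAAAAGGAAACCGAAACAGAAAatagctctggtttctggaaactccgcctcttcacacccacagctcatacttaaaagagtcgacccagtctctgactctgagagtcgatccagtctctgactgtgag

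Cell cycle genes were higher in peritumoral tissue. Of 33 genes 22 rose and 0 fell (median 1.27), 14 without nonDEN L-CD 3 and 3 without nonDEN L-CD 2 and 3. The proliferation antigen Mki67 counted 102, 51.7 and 53.8 in nonDEN L-CD and a median of 268 with a range of 117 to 511 in DEN PT-WD (2.07 ± 0.43, adjusted p = 0.00055). Topoisomerase Top2a went from 46.8, 56.3 and 44.7 to a median of 173 with a range of 76.4 to 437 (2.04 ± 0.41, adjusted p = 0.000372). DEN PT-WD 8 was the highest and DEN PT-WD 6 the lowest for both, and neither overlapped the controls. The mitotic kinase Aurkb (2.29), cyclin Ccnb2 (2.02), the mitotic activator Foxm1 (1.95) and the replication genes Mcm5 (1.41) and Tk1 (1.37) rose together. The bases TTTGAA, the core of the cell cycle homology region that mitotic promoters share, stood in 13 of 26 list promoters and in 20.2% of all promoters. Among 19 p53 target genes 3 rose (median 0.05): the death receptor Tnfrsf10b (1.96 ± 0.48), Phlda3 (1.52 ± 0.38) and Pmaip1 (1.23 ± 0.24). The cell cycle inhibitor Cdkn1a, the best known p53 target, had 91.2, 997 and 535 in nonDEN L-CD and 94.5 to 416 in DEN PT-WD, and was not called (-0.95 ± 0.41, adjusted p = 0.0621).

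Many genes of fetal liver and of liver tumors, here called oncofetal genes, were raised in tissue labelled peritumoral. Of 16 genes 11 rose and 0 fell, with a median of 2.08 (2.01 with lower bounds). The summed TPM of the list overlapped, at 37.4, 263 and 364 in nonDEN L-CD and a median of 369 with a range of 96.8 to 794 in DEN PT-WD. Alpha-fetoprotein (Afp, ENSMUSG00000054932, chr5:90490737-90508907) counted 10.5, 14.9 and 17.2 in nonDEN L-CD and a median of 510.2 with a range of 92.6 to 1706 in DEN PT-WD (5.38 ± 0.91, adjusted p = 6.48e-05). The cell surface proteoglycan glypican 3 (Gpc3) went from 44.5, 37.9 and 34.4 to a median of 677 with a range of 151 to 2986 (4.77 ± 1.09, adjusted p = 0.00117), and the imprinted noncoding RNA H19 from 33.9, 1.15 and 8.02 to a median of 707 with a range of 301 to 1712 (5.95 ± 0.89, adjusted p = 1.81e-05). All 8 peritumoral libraries lay above all 3 controls for these genes. DEN PT-WD 3 was the highest for Afp and Gpc3, and DEN PT-WD 6 the lowest for all 3. The aldo-keto reductase Akr1c18 ran from 2.34, 3.45 and 8.02 to a median of 815 with a range of 118 to 2401 (7.70 ± 1.46, adjusted p = 0.000218), highest in DEN PT-WD 4. The desaturase Scd2 (3.80), the guidance receptor Robo1 (2.04), the imprinted growth factor Igf2 (1.90) and Golm1 (1.38) also rose, and Bex2, with 0 counts in the controls, was at least 3.96-fold higher. In the 6 tumors Afp ran at 1096 to 2612 and Gpc3 at 221 to 6949.8. Outside the list, a similar gap separated the groups for several genes. Among them were the kinesin Kif5c (2.34, 2.30 and 8.02 against a median of 208 with a range of 27.8 to 640.4, 5.95 ± 1.36) and the NK receptor Klrb1b (2.34, 4.60 and 5.73 against a median of 241 with a range of 34.7 to 675, 5.99 ± 1.43), both lowest in DEN PT-WD 6. Klrb1b shares 24.4% of its 75-base windows with other genes. Without DEN PT-WD 3 and 4, 8 of the 16 oncofetal genes and 1892 of all genes were called. The part of tumor cells within the peritumoral samples in these results was not tested.

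**Figure D2:**
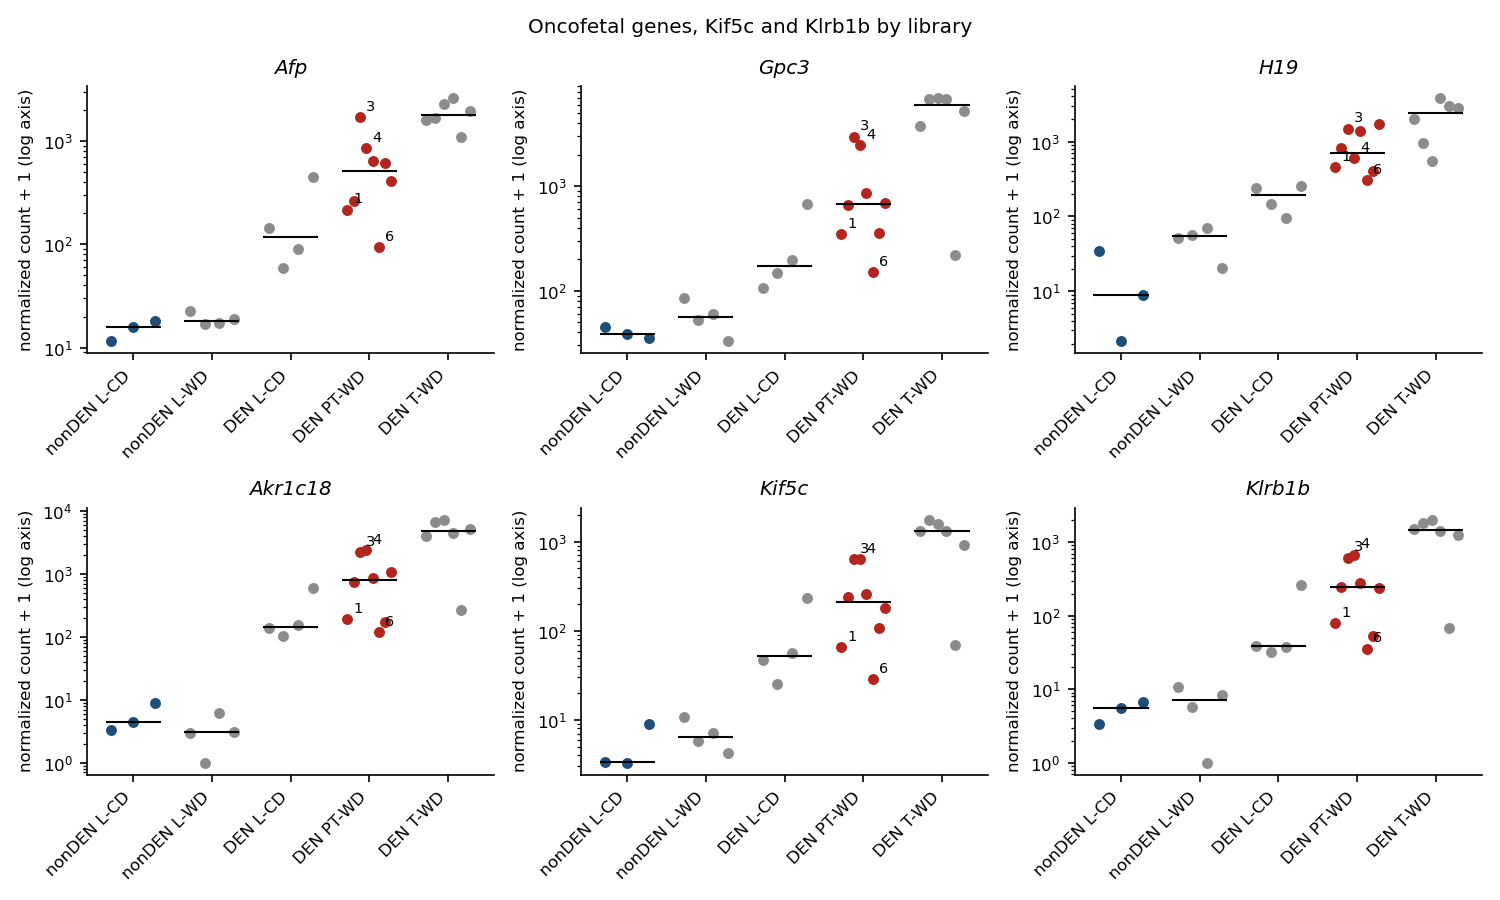
Normalized counts plus 1 (log axis) of 6 genes in every library, by group, with the median as a black line, nonDEN L-CD in blue and DEN PT-WD in red, and peritumoral libraries 1, 3, 4 and 6 numbered. The 8 peritumoral libraries lie above the 3 nonDEN L-CD libraries in each panel, and library 6 is the lowest of the 8.

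The sex-biased program of the male liver was shifted in both directions. Of 16 male-biased genes 9 fell and 0 rose (median -1.19), and of 15 female-biased genes 12 rose and 0 fell (median 3.88, 2.31 with the 6 genes near 0 in the controls at their lower bounds). Without nonDEN L-CD 2 or without nonDEN L-CD 3, 7 female-biased genes were called, and with library totals 5 male-biased ones. Cyp2a4, a steroid hydroxylase of female liver (ENSMUSG00000074254, chr7:26307169-26315088), counted 1.17, 2.30 and 2.29 in nonDEN L-CD and a median of 10836 with a range of 2126 to 24712 in DEN PT-WD, at least 3582-fold higher (adjusted p = 1.33e-05). It shares 22.1% of its 75-base windows with other genes, chiefly its near copy Cyp2a5, and Cyp2a5 rose from 4326, 2524 and 4104 to a median of 17581 with a range of 15262 to 27213 (2.41 ± 0.68). Cyp2b9 counted 1.17, 1.15 and 0 against a median of 1702 with a range of 116 to 2397, at least 417-fold higher (adjusted p = 2.69e-05), and Cyp2b13 was at least 50.8-fold higher. DEN PT-WD 7 stood apart and held 116 counts of Cyp2b9 and 4.22 of Cyp2b13, while its Cyp2a4 stood at 4877. The peroxisomal fatty acid transporter Abcd2 rose from 119, 181 and 81.3 to a median of 1456 with a range of 699 to 2532 (3.60 ± 0.59, adjusted p = 5.32e-05), again lowest in library 7. Cux2, a repressor of male-biased genes in female liver, rose (2.31 ± 0.71), and its call was lost in 1 fit. Cyp3a44, Cyp3a16 and Sult3a1 were at least 8.20-fold, 2.62-fold and 2.60-fold higher. The call of the enzyme Hao2 was lost in 3 fits.

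On the male side, the glucuronosyltransferase Ugt2b38 fell from 1762, 1334 and 834 to a median of 155 with a range of 78.7 to 515 (-2.47 ± 0.49, adjusted p = 0.000311). Selenbp2, a selenium-binding protein, fell from 14017, 8319.6 and 10569 to a median of 1759 with a range of 409 to 6416 (-2.13 ± 0.55, adjusted p = 0.00335). The fatty acid elongase Elovl3 fell from 6264, 4366 and 2729 to a median of 1039.7 with a range of 618 to 1371 (-2.12 ± 0.23, adjusted p = 4.86e-07). None of the 3 overlapped between groups, and Selenbp2 was highest in DEN PT-WD 7. The oxysterol hydroxylase Cyp7b1 (-1.40), the transferase Gstp1 (-1.34), complement C6 (-1.21), Nudt7 (-1.11) and the transporter Slco1a1 (-1.18) fell as well. Moxd1 had 2241, 140.3 and 1176 in nonDEN L-CD and a median of 1.65 with a range of 0.96 to 838 in DEN PT-WD. The highest value was that of library 7, and the call (-3.28 ± 1.25) was lost in 7 of 11 fits. Major urinary protein (Mup) genes, which carry pheromones into male urine, were looked at after their values had been seen: 16 of 21 fell and 0 rose (median -1.80), and the family took 8.93% to 13.5% of all counts in nonDEN L-CD and 2.17% to 6.05% in DEN PT-WD. Mup7 fell by 3.45 on the log2 scale (adjusted p = 0.000635), though 81.1% of its 75-base windows occur in other genes, so single members are uncertain. Among 15 genes of the growth hormone axis, Igfbp3 rose (1.16). The feedback inhibitor Socs3 fell from 365, 1130.4 and 1236 to a median of 181 with a range of 108 to 297 (-2.14 ± 0.30, adjusted p = 8.4e-06). Socs3 lay far lower in nonDEN L-CD 1 than in nonDEN L-CD 2 and 3, so the size of its fall depends on those libraries. Igf1, the main hepatic product of growth hormone signaling, was not called (-0.13 ± 0.17, adjusted p = 0.573), and the call of Irs2 (-1.02) was lost without nonDEN L-CD 3 or DEN PT-WD 2, 3 or 8.

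**Figure D3:**
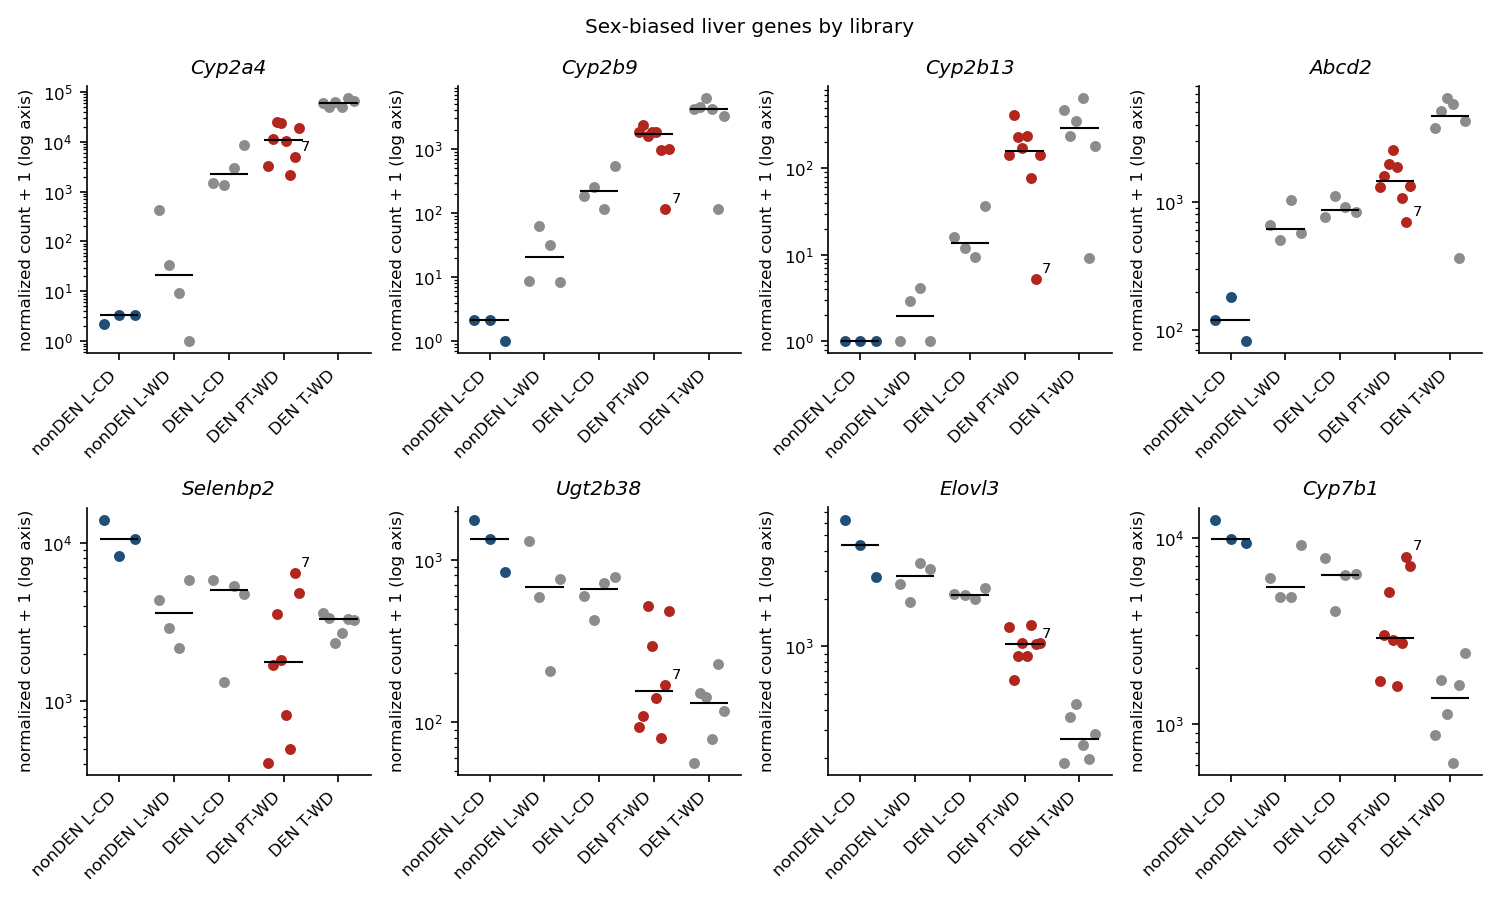
Normalized counts plus 1 (log axis) of 4 female-biased genes (top row) and 4 male-biased genes (bottom row) in every library, by group, with the median as a black line, nonDEN L-CD in blue, DEN PT-WD in red and peritumoral library 7 numbered. The nonDEN L-CD and DEN PT-WD libraries do not overlap in any panel, and library 7 holds the lowest Cyp2b9, Cyp2b13 and Abcd2 and the highest Selenbp2 and Cyp7b1 of the 8.

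Genes of the unfolded protein and integrated stress responses moved in both directions. Of 19 such genes 7 fell, 3 rose and 9 were not called (median -0.15, but 0.04 without nonDEN L-CD 2 and 0.13 with library totals), with 4 lower without nonDEN L-CD 2 or with library totals, and 1 higher without nonDEN L-CD 1 or 3. Creld2, an isomerase induced by reticulum stress (ENSMUSG00000023272, chr15:88819646-88826683), fell from 3343, 6581 and 4297 to a median of 415 with a range of 311 to 766 (-3.41 ± 0.30, adjusted p = 3.28e-08). The chaperone BiP (Hspa5) fell from 35363, 85950.5 and 47877 to a median of 13944 with a range of 10396 to 24861 (-1.91 ± 0.31, adjusted p = 4.9e-05), and the chaperone GRP94 (Hsp90b1) from 54899, 81826 and 72212 to a median of 24524 with a range of 18904 to 33538 (-1.48 ± 0.20, adjusted p = 4.95e-06). No peritumoral library reached any control for these 3, and nonDEN L-CD 2 was the highest control. Sdf2l1 (-1.85), Pdia4 (-1.18) and Xbp1 (-1.06) fell too. The rising genes were the kinase-like inhibitor Trib3 (1.71 ± 0.42), Atf3 (1.17, lost in 2 fits) and the serine enzyme Psat1 (1.73, lost in 8 of 11 fits), while asparagine synthetase Asns fell (-1.21, lost in 5 fits).

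The endoplasmic reticulum stress element, read here as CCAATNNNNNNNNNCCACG on both strands, occurred in 37 of 27025 promoters (0.137%) and in 3 of the 19 list promoters, those of Hspa5, Hsp90b1 and Creld2. Of the 10 called genes of the list these 3 had the element, and all 3 fell. Sdf2l1, Pdia4, Xbp1 and Asns fell without it. The 3 promoters are printed because they carry the element. The windows are chr2:34771840-34772139, plus strand for Hspa5, chr10:86705395-86705694, minus strand for Hsp90b1 and chr15:88819396-88819695, plus strand for Creld2, in GRCm38.p6, with the element in capitals and other bases in lower case:
Hspa5: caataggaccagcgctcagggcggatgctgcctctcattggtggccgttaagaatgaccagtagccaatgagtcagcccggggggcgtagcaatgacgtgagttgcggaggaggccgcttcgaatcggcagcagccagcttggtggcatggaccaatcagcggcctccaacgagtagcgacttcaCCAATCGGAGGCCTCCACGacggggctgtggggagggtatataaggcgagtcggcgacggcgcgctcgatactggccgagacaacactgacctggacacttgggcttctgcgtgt
Hsp90b1: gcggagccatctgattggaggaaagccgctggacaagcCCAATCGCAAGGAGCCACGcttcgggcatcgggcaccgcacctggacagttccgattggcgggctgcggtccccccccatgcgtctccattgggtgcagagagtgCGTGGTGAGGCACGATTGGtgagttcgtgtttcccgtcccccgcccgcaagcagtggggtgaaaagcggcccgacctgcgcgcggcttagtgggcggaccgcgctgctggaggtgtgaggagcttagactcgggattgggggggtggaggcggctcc
Creld2: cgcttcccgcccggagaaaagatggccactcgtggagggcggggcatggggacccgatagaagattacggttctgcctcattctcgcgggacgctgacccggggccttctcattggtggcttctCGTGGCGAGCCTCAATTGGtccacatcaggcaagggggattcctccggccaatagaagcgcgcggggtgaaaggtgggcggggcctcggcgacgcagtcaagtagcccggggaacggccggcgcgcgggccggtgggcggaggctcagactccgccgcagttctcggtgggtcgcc
The CCAAT box inside this element is common by itself, in 41.1% of all promoters, 14 of 19 list promoters, 21 of 26 cell cycle promoters and 7 of 7 MHC class II promoters.

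Acute phase and metal response genes were lower in peritumoral tissue than in 2 of the 3 controls. Of 24 genes 10 fell and 1 rose (median -0.92), but only 1 fell when nonDEN L-CD 2 and 3 were left out. Serum amyloid Saa1 had 3729, 50136 and 62567 in nonDEN L-CD and a median of 2425 with a range of 1600.5 to 17172 in DEN PT-WD (-3.07 ± 0.73, adjusted p = 0.00168). The metallothionein Mt1, which binds zinc and copper, had 1723, 22319 and 22534 against a median of 932 with a range of 515 to 6970.0 (-3.01 ± 0.74, adjusted p = 0.00213). Saa2 (-3.82 ± 0.74) and Mt2 (-3.22 ± 0.82) followed the same order. nonDEN L-CD 1 lay within the peritumoral range for all 4, so these differences rest on the other 2 controls, and without those 2 all 4 values turned positive, at 0.15 to 1.05 (uncalled). The protease inhibitor Serpina3n (-2.29 ± 0.39), the zinc importer Slc39a14 (-1.54), Steap4 (-2.47) and the fibrinogen chains Fga (-1.58), Fgb (-1.43) and Fgg (-1.65) fell. Orm3 was the exception, rising from 33.9, 43.7 and 136 to a median of 289 with a range of 44.7 to 774 (2.15 ± 0.57, adjusted p = 0.00405).

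Genes of lipid handling changed in both directions. Of 23 genes of lipid droplets, fat uptake and triglyceride synthesis 5 rose and 3 fell (median -0.01). The fatty acid translocase Cd36 went from 1632, 1690.4 and 1469.7 to a median of 7173 with a range of 3081 to 10581 (2.22 ± 0.36, adjusted p = 4.43e-05). The lipoprotein receptor Vldlr rose from 35.1, 18.4 and 16.0 to a median of 227 with a range of 75.1 to 318 (3.17 ± 0.58, adjusted p = 0.00014). The droplet-fusing protein Cidea rose from 4.68, 52.9 and 5.73 to a median of 445 with a range of 16.9 to 749 (4.40 ± 1.05, adjusted p = 0.00169), overlapping nonDEN L-CD 2 through DEN PT-WD 7. The monoacylglycerol acyltransferase Mogat1 rose by 3.28. All 4 were lowest in DEN PT-WD 7. The droplet coats Plin5 (-1.49 ± 0.16, adjusted p = 2.88e-07) and Plin2 (-1.07, lost in 2 fits) and the lipase inhibitor G0s2 (-1.18) fell, while Plin4 rose (1.06, lost in 4 fits). With library totals 1 of these 3 falls was called.

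Of 19 fatty acid synthesis genes 4 rose and 2 fell (median 0.14). Srebf1, the transcription factor that drives lipogenesis, rose from 1344, 990.1 and 1038 to a median of 7289 with a range of 4309 to 11642 (2.65 ± 0.39, adjusted p = 1.8e-05), without overlap. Its enzyme target Fasn overlapped, at 5885 to 7433 and 5621 to 25395 (0.80 ± 0.47, adjusted p = 0.175), as did Scd1 (0.37 ± 0.44, adjusted p = 0.509). Scd2 and Elovl3 moved as given above, Thrsp rose (1.41), Acacb fell (-1.04, lost without DEN PT-WD 2, 3 or 7), and Pnpla3 (2.22) lost its call in 8 of 11 fits. Without nonDEN L-CD 2 only 2 genes of the list were higher. Of 22 PPAR alpha targets, Vnn1 rose (1.43 ± 0.28) and the lipase inhibitor Angptl4 fell from 6080.4, 4480.1 and 4526 to a median of 1671 with a range of 907 to 1956 (-1.67 ± 0.15, adjusted p = 5.26e-08), with a list median of -0.13. Without nonDEN L-CD 1, 4 rose. Cholesterol synthesis and uptake gave 0 higher and 2 lower of 25 (median -0.13): the reductase Tm7sf2 (-1.20 ± 0.16, adjusted p = 4.2e-06) and the isomerase Idi1 (-1.15, lost without nonDEN L-CD 2). The count of falls was 5 without DEN PT-WD 3, 4 without nonDEN L-CD 3 and 0 with library totals. Hmgcs1 was at 0.81 ± 0.32 and uncalled. Cfd, an adipose protease also called adipsin, was the only one of 7 adipose genes called (29.2, 46.0 and 36.7 against a median of 752 with a range of 226 to 1405, 4.29 ± 0.84), and adiponectin (Adipoq) stayed at or below 2.32 TPM in all 11 libraries.

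Cyp7a1 and 3 exporters of sterols and bile salts rose. Cyp7a1, the rate-limiting enzyme of bile acid synthesis from cholesterol (ENSMUSG00000028240, chr4:6265612-6275633), had 953, 314 and 505 in nonDEN L-CD and a median of 10055 with a range of 5402 to 18678 in DEN PT-WD (4.08 ± 0.45, adjusted p = 4.7e-07). The canalicular sterol exporters Abcg5 (1304, 965 and 1325 against a median of 3764 with a range of 2926 to 5873, 1.70 ± 0.17) and Abcg8 (1.50 ± 0.19) and the basolateral exporter Abcc3 (1.26 ± 0.26) rose without overlap of the groups. In this list of 19 genes 4 rose and 2 fell, the latter being the male-biased Cyp7b1 and Slco1a1 (median 0.11). Slco1a1 lost its call without nonDEN L-CD 1, 2 or 3. Of 30 xenobiotic cytochromes 10 rose and 0 fell (median 0.41), and 5 of the 10 stand on the female-biased list too. Cyp2a22, of the same family as Cyp2a4 and Cyp2a5, rose by 5.35. Cyp2c39 rose from 25.7, 24.1 and 13.7 to a median of 123 with a range of 61.8 to 165 (2.44 ± 0.40, adjusted p = 4.67e-05), Cyp2c38 by 1.89, and Cyp2g1 was at least 9.79-fold higher. Of 18 NRF2 targets, induced by electrophiles and oxidants, 3 rose and 1 fell (median 0.74). The falls were 2 by DESeq2, and 2 without nonDEN L-CD 1 or DEN PT-WD 1, 3, 4, 5 or 8. The quinone reductase Nqo1 went from 71.4, 102 and 74.5 to a median of 379 with a range of 242 to 459 (2.15 ± 0.54, adjusted p = 0.00274). Slc7a11, the cystine importer, went from 7.02, 1.15 and 13.7 to a median of 166 with a range of 38.2 to 307, but its call (adjusted p = 0.0484) was lost in 9 of 11 fits and that of Cbr3 in 4, so 1 target was higher without nonDEN L-CD 1, 2 or 3 or DEN PT-WD 8.

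Few genes were called in the remaining metabolic lists. Of 21 urea cycle and amino acid genes 4 fell and 0 rose (median -0.52), a count that ran from 0 without nonDEN L-CD 3 to 7 without nonDEN L-CD 1, and was 2 without DEN PT-WD 2, 3 or 4 and 0 with library totals. The 4 were the transaminases Tat (-1.19 ± 0.31) and Got1 (-1.15 ± 0.39), the ornithine carrier Slc25a15 (-1.02) and Sdsl (-1.01). Glyctk, a glycerate kinase, was the single call among 16 genes of gluconeogenesis, glycogen and fructose (9521, 8310.5 and 8877 against a median of 4193 with a range of 3404 to 4769, -1.11 ± 0.10, adjusted p = 3.61e-08), a call lost with library totals, and 42% of its 75-base windows occur in other genes. Of 15 glycolysis isoforms, hexokinase Hk2 rose from 56.1, 27.6 and 37.8 to a median of 169 with a range of 103 to 209.9 (2.01 ± 0.33, adjusted p = 5.32e-05) and pyruvate kinase Pkm by 1.07 (lost in 2 fits), with 5 called under library totals and 1 without DEN PT-WD 8, both isoforms being low in normal hepatocytes. Of 18 circadian clock genes Per3 rose (1.38 ± 0.25) and Arntl (-1.47 ± 0.33) and Nfil3 fell, with 3 rising without nonDEN L-CD 1 and the fall of Arntl lost without nonDEN L-CD 2. The repressor Nfil3 went from 812, 1286 and 1289.9 to a median of 304 with a range of 236 to 411 (-1.88 ± 0.17, adjusted p = 4.13e-08), and the time of day of sampling was not analysed here.

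None of 20 hepatocyte identity genes was called (edgeR, 9 at an unadjusted p under 0.05, 2 lower by DESeq2), with a median of -0.31. When 1 library was left out, 0 to 2 were called lower, and 1 was called higher without nonDEN L-CD 1. Hnf4a, the central hepatocyte transcription factor, was still below all controls in every peritumoral library, at 19397, 17913 and 18602 against a median of 11299 with a range of 10517 to 14134 (-0.67 ± 0.12, adjusted p = 0.000131). Pericentral Wnt targets gave 0 of 16 called (8 at an unadjusted p under 0.05, 0 by DESeq2, median 0.34). The count was 1 higher gene without DEN PT-WD 6 or 7, and 2 with library totals. Glutamine synthetase (Glul), the marker of the innermost pericentral layer, ran at 21696 to 23630.3 and 24921 to 35562 (0.49 ± 0.18, adjusted p = 0.0273), and the feedback gene Axin2 overlapped (0.62 ± 0.24). Skeletal muscle markers gave 0 of 8 called (0 at an unadjusted p under 0.05, 0 by DESeq2).

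**Figure D4:**
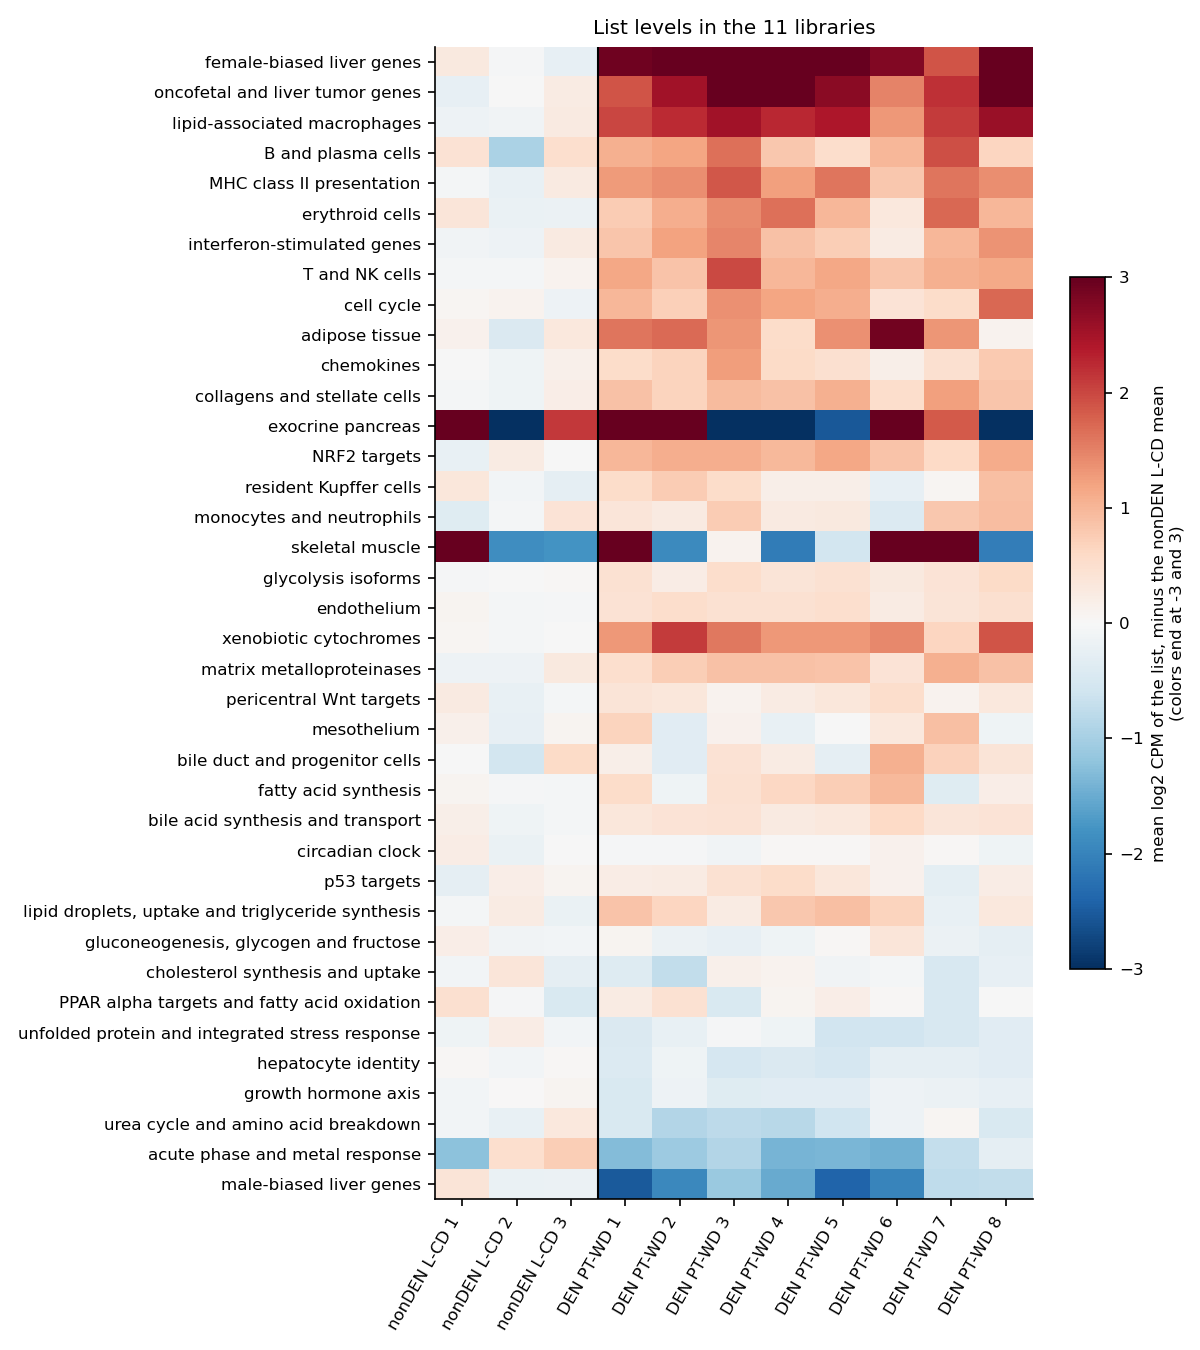
Mean log2 CPM (counts scaled to library size) of each gene list in the 3 nonDEN L-CD and 8 DEN PT-WD libraries, minus the nonDEN L-CD mean, with lists in the order of their median and the color scale ending at -3 and 3. Female-biased, oncofetal and macrophage lists are raised in all 8 peritumoral libraries, the acute phase list is low in nonDEN L-CD 1 as well, and the pancreas and muscle lists vary from library to library within both groups.

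Among the genes named only for the size of their change, several share sequence with other genes. Zbed6, a zinc finger gene within an intron of Zc3h11a, was at least 35.7-fold higher, yet 100% of its 75-base windows occur in another gene. Gm10222 fell from 6117, 7187 and 5803 to a median of 0 with a range of 0 to 3.08, and 100% of its windows occur in the mitochondrial gene mt-Nd4l. Gm7334 (-3.62) shares 100% with Btg3, and Gtpbp4-ps1 (-3.79) is a pseudogene sharing 80.6%. Reads of such genes cannot be assigned with certainty. The others were the ferritin receptor Scara5 (930.0, 1889 and 2407 against a median of 73.8 with a range of 37.9 to 680.2, -3.22 ± 0.69), the imprinted retrotransposon-derived Peg10 (204, 593 and 365 against a median of 43.6 with a range of 23.6 to 58.6, -3.14 ± 0.32, adjusted p = 2.15e-07), the tubulin glycylase Ttll8 (-3.45 ± 0.40) and Gm10309 (-5.52 ± 0.56). Peg10 fell, while the imprinted H19 and Igf2 rose.

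The single exposures were set beside the combined one. Against the same controls, nonDEN L-WD (WD alone) differed in 5.28% of all genes and DEN L-CD (DEN alone) in 4.7%, which are 825 and 734 genes, and 507 and 430 without nonDEN L-CD 2. Starting from a single exposure, 2.76% were called from nonDEN L-WD to DEN PT-WD and 1.9% from DEN L-CD to DEN PT-WD. These are 432 and 297 genes, and with library totals they were 750 and 784, in the opposite order. Since the same control or peritumoral libraries enter several of these comparisons, values are given side by side only. Of the 11 oncofetal genes that rose in DEN PT-WD, Afp stood at 0.34 with WD alone and 3.69 with DEN alone, and H19 at 1.77 and 3.68. The study states that some DEN mice on CD also had tumors, and that these could not be reliably parted from the tissue around them. DEN L-CD libraries may therefore hold tumor tissue, and its part in these values was not tested. In counts, 0 of 16 oncofetal genes rose with WD alone, 6 with DEN alone, 12 from nonDEN L-WD to DEN PT-WD and 1 from DEN L-CD to DEN PT-WD, while 2 fell with WD alone and 1 with DEN alone. For lipid-associated macrophage genes, 5 of 13 rose and 1 fell with WD alone, 1 rose with DEN alone, and 9 rose from nonDEN L-WD to DEN PT-WD and 10 from DEN L-CD to DEN PT-WD. Gpnmb was at 3.14 ± 0.89 with WD and 1.31 ± 0.97 with DEN, against 5.19 ± 0.86 with both. Collagens gave 3 and 0 of 27 for the single exposures, with Col1a1 at 1.26 and 0.53. Elovl3 was at -0.72 and -1.06. Mup genes fell in 11 of 21 cases from nonDEN L-WD to DEN PT-WD and in 13 from DEN L-CD to DEN PT-WD.

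Another set of genes was called with each single exposure as well. Creld2 stood at -2.65 with WD and -2.91 with DEN, Hspa5 at -1.31 and -1.62, and Cyp7a1 at 3.87 and 3.61. Acute phase genes fell in 15 of 24 cases with WD alone and 12 with DEN alone, and these falls rest on nonDEN L-CD 2 and 3. The mean log2 CPM of the list was 9.28 and 9.51 in those and 7.56 in nonDEN L-CD 1, which lay within the 6.84 to 7.78 of nonDEN L-WD and the 6.94 to 8.05 of DEN L-CD. A test of the interaction set the step from DEN L-CD to DEN PT-WD against the step from nonDEN L-CD to nonDEN L-WD on the log scale. The former changes diet together with the tissue, from liver to peritumoral tissue, and the latter changes diet alone, so the term is not one of diet only. It called 2.75% of all genes, or 430, and 232 and 258 without nonDEN L-CD 2 or 3. The 5 smallest interaction p-values (adjusted 2.97e-05 each) belonged to the ubiquitin ligase Nedd4l (1.99 ± 0.22), Apol7a (-1.79 ± 0.20), the steroid dehydrogenase Hsd3b2 (-2.34 ± 0.27), Tacc2 (2.44 ± 0.28) and the adhesion molecule Icam1 (1.87 ± 0.21). For the first 4, the 3 exposed groups lay on the same side of nonDEN L-CD. Tacc2, for example, had 1159, 3157 and 3198 there, 487 to 533 in nonDEN L-WD, 394 to 522 in DEN L-CD and 404 to 603 in DEN PT-WD. Hsd3b2 ran at 189.7 to 492, 1368 to 1858, 1149.6 to 1484 and 1189 to 1583 in the same order. Icam1 was called lower with either exposure (-1.08 with WD alone) and uncalled with both (-0.21 ± 0.14, adjusted p = 0.234). In each of these interactions the 3 nonDEN L-CD libraries are the reference, and whether those 3 libraries stand apart for another reason was not tested.

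**Figure D5:**
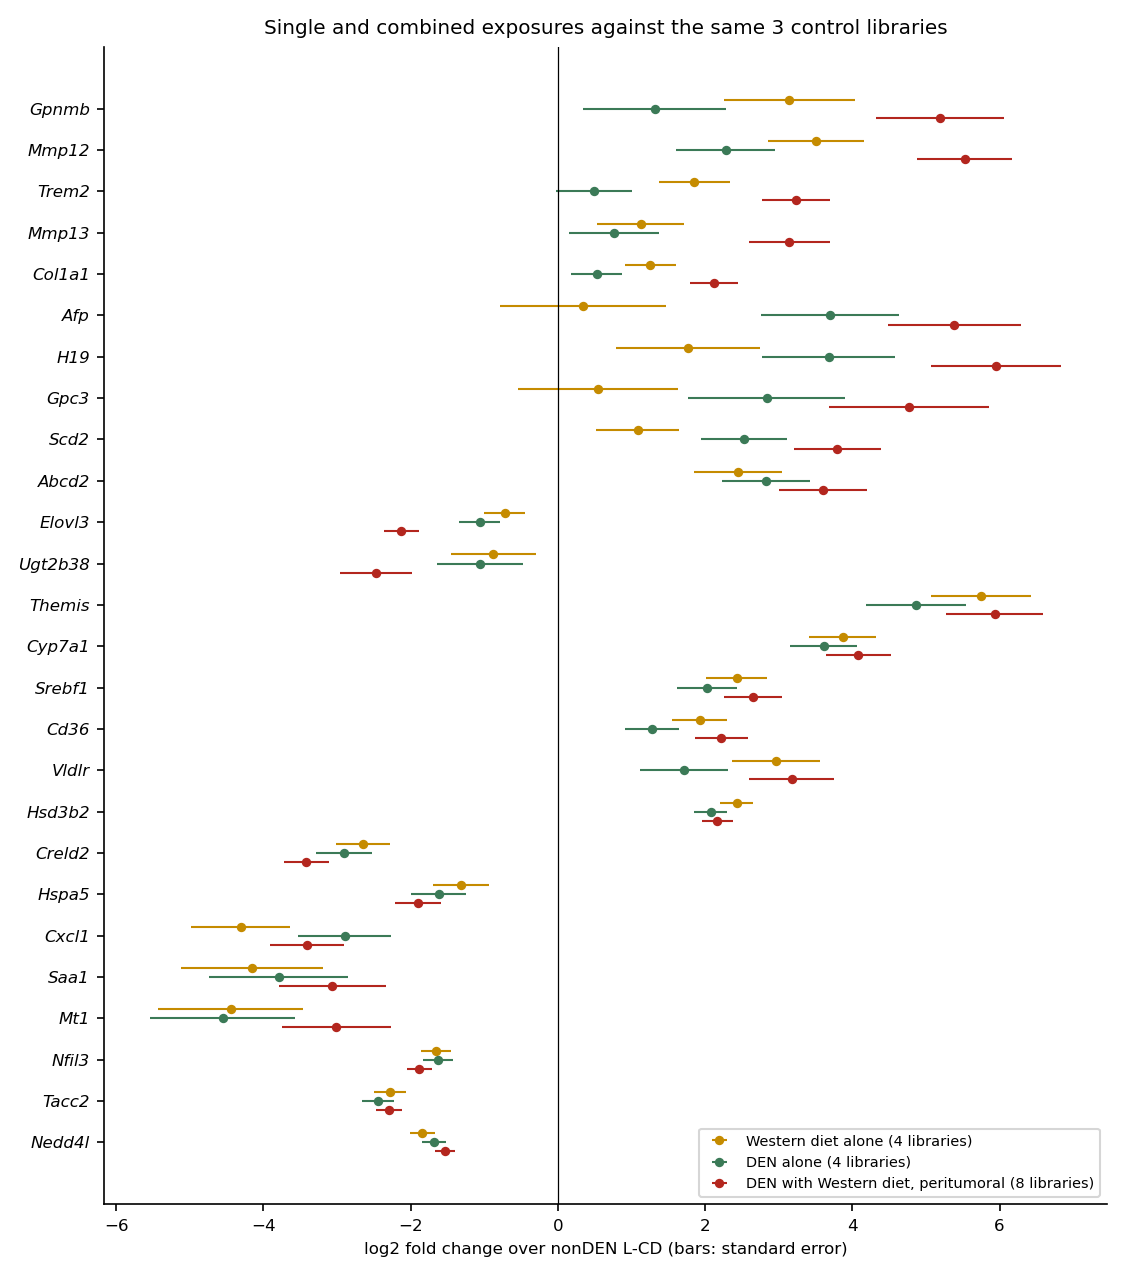
Log2 fold change over the same 3 nonDEN L-CD libraries of 26 genes for WD alone (4 libraries, gold), DEN alone (4 libraries, green) and DEN with WD in peritumoral tissue (8 libraries, red), with standard errors as bars. Afp and Gpc3 lie near 0 with WD alone and highest with both exposures, whereas Creld2, Hspa5, Cyp7a1, Tacc2 and Nedd4l lie close together for the 3 groups.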

How the data were processed

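Whole tissue RNA (poly(A) selected libraries) of 25 samples was aligned by the authors to GRCm38 with STAR and quantified per gene with RSEM; tool versions and the annotation release are not given in the sources used here. The deposited tables hold, for 48795 genes per library, expected counts (estimated reads, shared reads divided by RSEM), TPM, and lengths; symbols were matched for 48435 of the IDs, and TPM served only for levels of marker genes. No columns of the authors' own comparisons were present.

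Expected counts were rounded and fitted over all 5 groups with edgeR 4.0.16 (R 4.3.3, limma 3.58.1): TMM, filterByExpr with a minimum count of 10, quasi-likelihood test, Benjamini-Hochberg over 15625 genes, with calls at an adjusted p up to 0.05 and a log2 fold change of 1 or more in size. Changes are log2 fold change ± standard error. Values per library are normalized counts. Genes with at most 3 raw counts in every nonDEN L-CD library are given as lower bounds against a floor of 3 counts per library. Library measures used an exact permutation test over 165 assignments (NumPy 2.4.6). DESeq2 1.42.0 (also with apeglm 1.24.0), other scalings, filters, a replicate block and left-out libraries were alternatives. Leaving out DEN PT-WD 3 and 4, or nonDEN L-CD 2 and 3, was chosen after seeing the data. Scripts were tested on simulated data with Python 3.11.15 and R.

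The libraries compared and the 38 gene lists were chosen with earlier results of these data known. Named genes were the 10 largest and 10 smallest changes among called genes whose groups did not overlap and whose higher group averaged 100 or more normalized counts, up to 4 called members per list (minimum 100, or 20 for low-count lists), the 5 smallest interaction p-values and fixed cell type markers, 115 in all with a test; other list members were named after their values were seen. Promoters are RefSeq, GRCm38.p6, and shared sequence was measured as the share of 75-base windows found in another gene.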

Additional observations from a re-analysis of the deposited data

Results flagged for a closer look

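Single libraries far from the rest of DEN PT-WD were looked for in the 115 named genes, and chance marks about 1 in 20 groups. DEN PT-WD 7 was the lowest for Cyp2b9 (116 normalized counts), Cyp2b13 (4.22), Ccl2 (20.3), Pmaip1 (47.3), Cidea (16.9), Cd36 (3081) and Abcc3 (4888), and the highest for Cd34 (295) and Sdsl (189.9). DEN PT-WD 6 was the lowest for Ciita (47.5) and the highest for Abcg8 (6041). DEN PT-WD 3 was the highest for Ccl5 (155) and DEN PT-WD 8 for Pkm (1652). Of these 13 marks 9 belong to DEN PT-WD 7.

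The step from DEN L-CD to DEN PT-WD differed from the step from nonDEN L-CD to nonDEN L-WD, by the interaction term (adjusted p of at most 0.05), for 26 named genes. The former changes diet together with tissue, from liver to peritumoral, and the 2 cannot be told apart in it. Values are log2 differences, DEN step minus uninjected step. Acute phase and metal genes had positive values: Mt2 8.49, Mt1 5.99, Saa2 5.40, Saa1 4.88 and Socs3 2.48. The same sign was found for the neutrophil attractant Cxcl1 (3.80), the neutrophil gene Retnlg (3.04), Icam1 (1.87), Creld2 (2.14), the clock genes Arntl (2.35) and Nfil3 (1.40), and for Tacc2 (2.44), Nedd4l (1.99), Ttll8 (2.88), Sdsl (1.02), Gm10309 (4.86) and Gm7334 (9.97). Lipid and bile acid genes had negative values: Cidea -4.86, Cyp7a1 -3.39, Mogat1 -2.90 and Srebf1 -1.80. Negative values were also found for Themis (-4.68), the B cell factor Pax5 (-2.90), Hsd3b2 (-2.34), Apol7a (-1.79) and Gm10222 (-10.58). Each value uses the same 3 nonDEN L-CD libraries. For Saa1, Saa2, Mt1 and Mt2, nonDEN L-CD 1 lay within the peritumoral range, so these values rest on nonDEN L-CD 2 and 3, and over all genes the interaction calls went from 430 to 232 and 258 without one or the other.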

How the results depend on the processing

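Of 2522 alternative fits of the 115 named genes, 2349 kept direction and side of the threshold, 164 lost the call and 9 reversed. The count between DEN PT-WD and nonDEN L-CD (2077) was 2033 with the replicate block, 2153 by DESeq2 and 1630 to 2134 without 1 library, but 812 (568 higher, 244 lower) without nonDEN L-CD 2 and 3, which leaves 1 control taken to vary like the other groups. In that fit Cxcr2 (0.38), S100a8 (0.27), S100a9 (0.63), Saa1 (0.31), Saa2 (1.05), Mt1 (0.15), Mt2 (0.52) and Icam1 (0.025) turned positive. With library totals 2504 were higher and 267 lower, Icam1 turned to 0.068, and 750 genes were called from nonDEN L-WD to DEN PT-WD and 784 from DEN L-CD to DEN PT-WD. Without the 2-fold minimum 7082 were called (3666 higher, 3416 lower), 3626 for WD alone, 3327 for DEN alone, 1933 and 1650 from these 2 groups to DEN PT-WD, and 1311 for the interaction. Leaving out 1 library gave 507 to 924 for WD alone, 430 to 842 for DEN alone and 232 to 600 for the interaction, the lowest each time without nonDEN L-CD 2. The cause of these shifts was not tested. Libraries of the same replicate number did not all deviate together (correlations of 0.33, -0.20 and -0.14 for numbers 1 to 3), so the numbers were not taken as pairs; with the replicate block 8 urea cycle and amino acid genes and 2 hepatocyte identity genes fell, 5 NRF2 targets, 3 PPAR alpha targets and 2 pericentral genes rose, 1 lipid droplet gene fell, and Cd34, the called endothelial gene, was not called. With 3 controls, levels in nonDEN L-CD rest on few libraries, and genes near 0 counts there allow only lower bounds.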

Other observations

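DEN PT-WD 6 was the lowest peritumoral library for Mmp12, Gpnmb, Trem2, Col1a1, Mki67, Afp, Gpc3, H19, Akr1c18 and Cyp2a4, and the highest for Srebf1 (11642 normalized counts), Fasn (25395) and Abcg5 (5873). DEN PT-WD 7, the lowest for Cyp2b9 and Cidea, was the highest for Cyp7a1 (18678), Gpnmb (1246), Col5a2 (633) and Mt1 (6970.0). Its Mup20 count (492427) lay at the level of the controls (492814, 476804 and 396709), and its Pnpla3 count (9.28) lay below them (21.1, 19.5 and 11.5). Counted over all genes, 1122 genes of DEN PT-WD 7 and 1088 of DEN PT-WD 6 lay at least 2-fold from the median of the other libraries of their group, against 561 to 741 for the other 6 libraries.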
